A study of Homo sapiens with 6 samples.

Results

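Human chromosome 19 carries long arrays of genes for C2H2 zinc finger proteins, and 161 of them form the group described here. They are the protein-coding genes of chromosome 19 whose symbol is ZNF followed by a digit and whose mean level over all 6 libraries was at least 1 CPM (the expected counts of a gene scaled to the sum of a library's table). The files held 249 such ZNF genes on the chromosome, expressed or not, among 58884 genes in all. The rule used the level of each gene but not the difference between the groups. The genes just inside the limit were ZNF549 at a mean of 1.03 CPM, ZNF547 at 1.49 and ZNF155 at 1.49, and those just outside it were ZNF599 at 0.970, ZNF846 at 0.837 and the readthrough gene ZNF559-ZNF177 at 0.623. The count filter kept 159 members for testing and dropped ZNF547 and ZNF549.

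A C2H2 zinc finger is a short protein fold held by a zinc ion that reads a few bases of DNA, and a zinc finger protein strings many of them together to bind a long site. In a large share of these proteins the fingers follow a KRAB domain, which binds the corepressor TRIM28 and through it brings histone methylation and heterochromatin to the bound DNA, very often at transposable elements. The chromosome 19 clusters grew by repeated tandem duplication during primate and earlier vertebrate evolution, so that neighbours are commonly close copies of each other. Matrin3 is a nuclear RNA-binding protein of the nuclear matrix that acts on splicing and on RNA stability.

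The RNA was that of HCT116, a colorectal cancer line long in culture, so that 1 line stands for each group. The control group (siCTRL, 3 libraries) received a negative control siRNA, and the knockdown group (siMatrin3, 3 libraries) a mixture of several siRNAs to the Matrin3 mRNA. Cells of both were taken after 48 h. Both groups went through transfection, and untransfected cells were not among them. The comparison asked which of the zinc finger genes differed in level when Matrin3 was reduced.

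The tables summed to 4556658 to 8400412 expected counts per library, and a typical member had a median of 58 to 108 counts in a library. MATR3, the targeted gene, was at 363, 343 and 330.2 CPM in siCTRL and 72.4, 67.9 and 71.4 in siMatrin3 (log2 fold change -2.29 ± 0.06 SE, edgeR adjusted p = 7.58e-11). Of 14 markers of colon epithelium, 9 were high enough to test, and 2 of them, EPCAM and KRT19, were higher in siMatrin3. VIL1, CDX1, CEACAM5, GPA33 and LGALS4 fell under the filter. The summed level of the 14 markers was 1707 to 1877 CPM in siCTRL and 1935 to 2042 in siMatrin3, and its part in the results of the members was not tested. Few markers of other cells were detected: the filter kept 2 of 10 for fibroblasts, 1 of 10 for blood and 2 of 8 for neural cells, none of which passed, and 7, 2 and 3 were at 0 in every library. The summed fibroblast level was 20.3 to 21.6 CPM in siCTRL and 19.3 to 23.2 in siMatrin3, the blood level 0 to 2.99 and 2.09 to 5.08, and the neural level 66.6 to 69.3 and 60.9 to 72.1. In bulk RNA, fewer cells of a type and less RNA per cell cannot be told apart.

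The members share the C2H2 finger but differ in build. Counted by pattern in the longest coding sequence of each gene (GENCODE release 44, hg38), fingers numbered 1 to 32 with a median of 12, and 129 of the 161 members had a KRAB A box pattern ahead of the first finger. The pattern missed degenerate boxes, so that 129 is a low estimate. ZNF91, a repressor of SVA elements that was picked here for its finger count after its values were seen, had the 32 fingers. A conserved linker joins one finger to the next, and 149 members had at least 1 copy of it, with a median of 6. One copy is given for each of 4 members, because repeats within and between members can limit how well a short read is assigned to 1 gene. A linker alone is shorter than a read, and the sharing of stretches as long as a read is given below. The capitals mark the bases of 1 linker.
ZNF264, chr19:57212442-57212462 of hg38, plus strand: cacACTGGAGAAAAGCCTttc
ZNF805, chr19:57254080-57254100 of hg38, plus strand: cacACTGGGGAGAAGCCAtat
ZNF83, chr19:52613698-52613718 of hg38, minus strand: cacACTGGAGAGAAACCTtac
ZNF468, chr19:52841145-52841165 of hg38, minus strand: catACTGGAGAGAAACCTtac

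Each transcript was cut into windows of 50 bases, the length of the reads, and each window was looked for in all other genes. The median member shared 2.45% of its windows with another gene, 41 members shared none, and 43 shared at least 10%. ZNF177 shared 95.4%, nearly all of it with the readthrough gene ZNF559-ZNF177. The spans of 117 members overlapped another annotated gene, 68 of them one on the same strand. Values of the members that share sequence rest on how the reads were divided between the copies.

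Most members are expressed at a low level. Their mean CPM ran from 1.03 to 203 with a median of 11.8. On the TPM scale, which accounts for transcript length, they ran from 0.19 to 51.3 with a median of 4.87. ZNF146, a protein made almost wholly of fingers, had the highest level at 51.3 TPM, followed by ZNF121 at 44.9 TPM. Together the members held 0.2995% ± 0.00998 of the counts in siCTRL and 0.263% ± 0.00807 in siMatrin3 (SD, n = 3 each). Their summed level was 3014, 2844 and 2938 CPM in the siCTRL libraries and 2760, 2670 and 2732 CPM in the siMatrin3 libraries, which did not overlap. That sum is weighted towards the few abundant members.

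Few single members passed the test. By edgeR's quasi-likelihood test at an adjusted p under 0.05, 7 of the 159 tested members were lower in siMatrin3 and 1 was higher. The share was 4.403% lower and 0.629% higher, against 5.18% and 5.68% of the 14334 genes tested (10.9% in either direction), so that members lower in siMatrin3 were about as frequent as in the background and members higher were rarer. Before adjustment, 32 members were lower and 3 higher at an edgeR p under 0.05, or 20.1% and 1.89%, against 12.3% and 12.8% of all genes. Same-numbered libraries deviated weakly alike, although the labels do not say that they were matched, and the reported fit leaves the number out. With the number as a block, 13 members were lower and 2 higher, against 7.37% and 8.39% of all genes. The members gained under the block were ZNF320, ZNF530, ZNF749, ZNF875, ZNF600 and ZNF112, all lower, and ZNF414, which was higher. DESeq2 gave 3 members lower and 0 higher (14 and 2 at an unadjusted p under 0.05), against 4.11% and 4.86% of the genes to which it gave an adjusted p. The share of all genes at an unadjusted p under 0.05 was not counted for DESeq2. The siMatrin3 and siCTRL libraries did not overlap for 37 members that were lower and 2 that were higher, or 24.5% of the members tested in all, against 29.8% of all genes. The lower ones made up 23.3% of the members, against 14.7% of all genes. The median SE of a log2 fold change was 0.162 for the members and 0.121 for all genes tested.

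ZNF264, a KRAB zinc finger gene (ENSG00000083844, chromosome 19, 57191500 to 57222846 on hg38, plus strand), showed the lowest p of the members. It stood at 60.6, 64.4 and 72.03 CPM in siCTRL and at 42.1, 42.1 and 40.2 in siMatrin3. Every knockdown library was below every control library, and the mean was 63.2% of control. The log2 fold change was -0.66 ± 0.08 (SE, edgeR adjusted p = 0.000259), and ZNF264 overlapped no other annotated gene.

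Next to it lies ZNF805 (ENSG00000204524, 57240632 to 57262728, plus strand), whose protein was identical to that of ZNF264 at 85.6% of the residues of the shorter protein. ZNF805 was at 31.5, 33.3 and 35.8 CPM in siCTRL and at 21.9, 26.1 and 26.0 in siMatrin3, again without overlap. Its log2 fold change was -0.45 ± 0.10 (SE, edgeR adjusted p = 0.0127). ZNF543 (ENSG00000178229, 57320472 to 57330770, plus strand) is a further relative in the same stretch, 77% identical to ZNF805. It fell from 17.05, 17.7 and 18.1 CPM to 13.03, 13.4 and 13.1 CPM (log2 fold change -0.42 ± 0.12 SE, edgeR adjusted p = 0.0405). Of their 50-base windows, 2.76% in ZNF264, 16.8% in ZNF805 and 7.69% in ZNF543 occurred in another gene. ZNF264 shared most with ZNF805, but only 0.825% of its windows, while ZNF805 shared 13.1% with the overlapping ENSG00000268713 and ZNF543 shared most, 3.71%, with P4HA2.

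ZNF154 (ENSG00000179909, 57696275 to 57709204, minus strand), a KRAB gene whose promoter is often methylated in tumours, had the largest fold change of the members that passed. It was at 6.69, 6.58 and 6.87 CPM in siCTRL and 3.98, 3.31 and 2.65 CPM in siMatrin3. The mean was 49.3% of control, with a log2 fold change of -1.01 ± 0.25 (SE, edgeR adjusted p = 0.0211). Its span overlaps ZNF551 on the opposite strand, and ZNF551 was not past the threshold (log2 fold change -0.06, edgeR adjusted p = 0.831).

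ZNF83 (ENSG00000167766, 52594060 to 52690559, minus strand) has 14 fingers and no KRAB pattern. It was at 34.3, 30.9 and 31.3 CPM in siCTRL and at 21.5, 23.5 and 20.9 in siMatrin3, or 68.3% of control (log2 fold change -0.55 ± 0.10 SE, edgeR adjusted p = 0.00334). ZNF577 (ENSG00000161551, 51804816 to 51890950, minus strand) was at 16.0, 12.7 and 14.3 CPM in siCTRL and at 7.82, 11.7 and 8.58 in siMatrin3. The groups did not overlap, although siMatrin3 replicate 2 came close to siCTRL replicate 2 (log2 fold change -0.61 ± 0.18 SE, edgeR adjusted p = 0.0425). Both spans overlap other genes, among them ZNF649 on the strand of ZNF577 and the pseudogene ZNF137P opposite ZNF83.

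ZNF121 (ENSG00000197961, 9560329 to 9584504, minus strand) was the abundant member among those that passed, and its change was the smallest. It was at 226, 209 and 216 CPM in siCTRL and at 196, 189 and 184 in siMatrin3, which left 87.6% of control (log2 fold change -0.19 ± 0.05 SE, edgeR adjusted p = 0.0421). ZNF468 (ENSG00000204604, 52838010 to 52857649, minus strand) was the only member past the threshold that was higher in siMatrin3. It rose from 32.4, 25.04 and 26.1 CPM to 38.3, 34.3 and 35.2 CPM, or 129% of control (log2 fold change 0.39 ± 0.11 SE, edgeR adjusted p = 0.0297). ZNF468 shares its strand and part of its span with ZNF28, to which its protein is 91.2% identical, and ZNF28 did not pass (log2 fold change 0.17, edgeR adjusted p = 0.511).

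**Figure D1:**
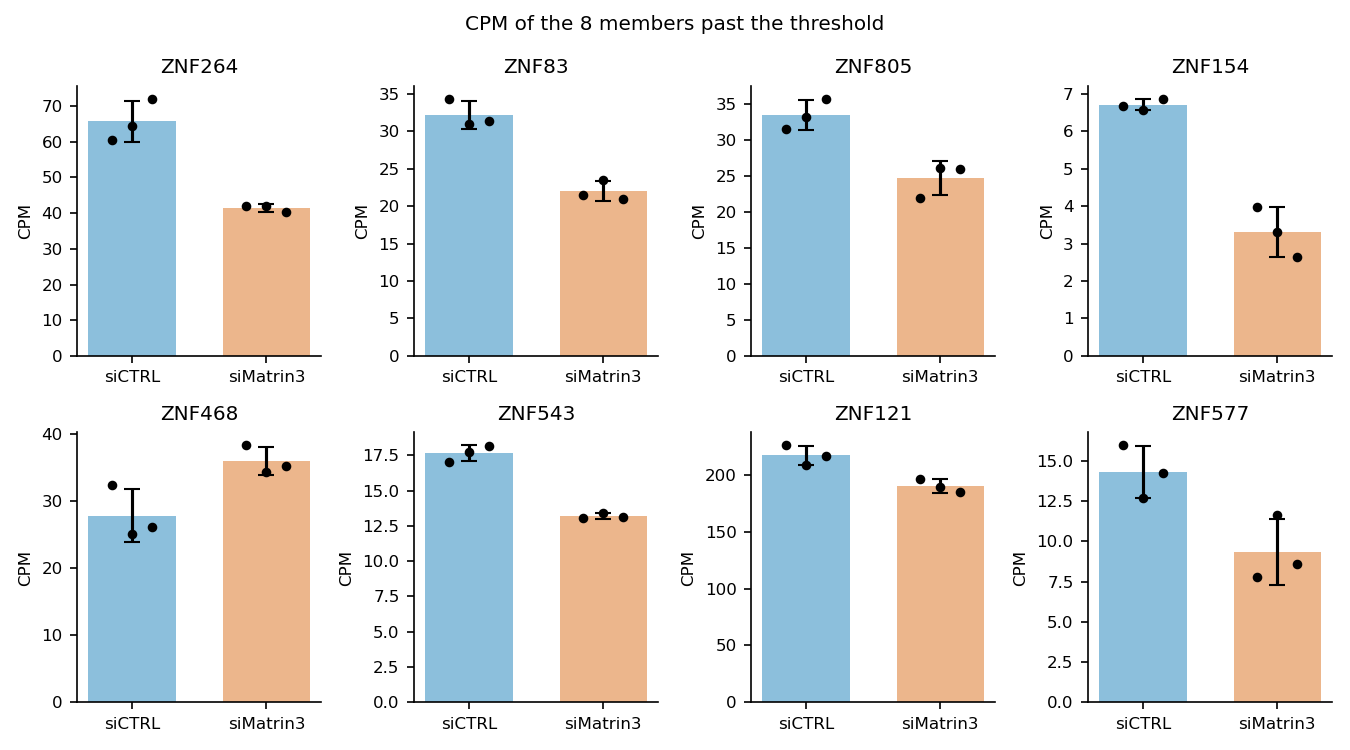
CPM (y axis, from 0, with a scale for each gene) of the 8 members past the threshold in siCTRL and siMatrin3, with the 3 libraries of a group as points over a bar for the mean and an error bar for the SD. For 7 members all 3 siMatrin3 points lie below all 3 siCTRL points, and for ZNF468 they lie above them.

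The calls differed in how far they rested on single libraries. ZNF264 and ZNF83 passed edgeR's test whichever of the 6 libraries was left out, with adjusted p from 0.000555 to 0.00198 and from 0.00504 to 0.0177. ZNF805 did not pass without siCTRL replicate 3 (adjusted p = 0.0637 by edgeR) or siMatrin3 replicate 1 (adjusted p = 0.0602), and ZNF154 did not pass without siCTRL replicate 2, siCTRL replicate 3 or siMatrin3 replicate 3 (adjusted p from 0.0553 to 0.0806). ZNF468 passed only without siCTRL replicate 1 or siMatrin3 replicate 2 and reached an adjusted p of 0.129. ZNF577 passed only without siMatrin3 replicate 2 and ZNF121 only without siCTRL replicate 2, with adjusted p of up to 0.154 and 0.151. ZNF543 did not pass when any one of the 6 libraries was left out, at adjusted p of 0.0667 to 0.122. Between 2 and 7 members were lower over these 6 fits, the fewest without siCTRL replicate 3, and 4 were lower without siMatrin3 replicate 1 or without siMatrin3 replicate 3. Calls over all genes fell as well, from 1557 with all 6 libraries to 772 without siCTRL replicate 3. The remaining fits called 938 to 1334 genes, so the loss of calls was not particular to the members.

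The tables also give an effective length for each gene, the mean length in bases of its isoforms weighted by their estimated abundance. For ZNF264 it was 4726, 6255 and 5715 bases in siCTRL and 3607, 3622 and 4389 in siMatrin3. For ZNF805 it was 8886, 6618 and 7101 bases in siCTRL and 5831, 5909 and 5254 in siMatrin3. In both genes the estimated isoforms were shorter in every knockdown library than in any control library. Per unit of length the difference was therefore smaller: ZNF264 was at 13.2, 10.4 and 13.2 TPM in siCTRL and at 11.3, 11.0 and 8.56 TPM in siMatrin3, and the groups overlapped. With the effective lengths as an offset in edgeR, the log2 fold change of ZNF264 was -0.14 (adjusted p = 0.650) and that of ZNF805 was -0.07 (adjusted p = 0.891).

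ZNF543 had an effective length of 3641 bases in all 6 libraries. Its TPM of 4.82, 4.93 and 5.22 in siCTRL lay above the 3.49, 3.50 and 3.35 in siMatrin3, and its log2 fold change with the offset was -0.43 (edgeR adjusted p = 0.190). ZNF83 had overlapping effective lengths and was at 20.5 ± 3.07 TPM in siCTRL and 13.9 ± 0.575 TPM in siMatrin3 (SD, n = 3 each), with a log2 fold change under the offset of -0.44 (edgeR adjusted p = 0.150). For ZNF121, too, the log2 fold change was smaller with the offset, at -0.10 (edgeR adjusted p = 0.526). By edgeR 0 members passed with the offset, a setting under which 1.42% of all genes tested did, and 20 members were lower and 3 higher at an unadjusted p under 0.05. The share of all genes at that unadjusted p was not counted with the offset. Of the 159 members tested, 9 had shorter effective lengths in every siMatrin3 library and 4 had longer ones. The shares, 5.66% and 2.52%, stood beside 5.42% and 4.02% of all genes.

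**Figure D2:**
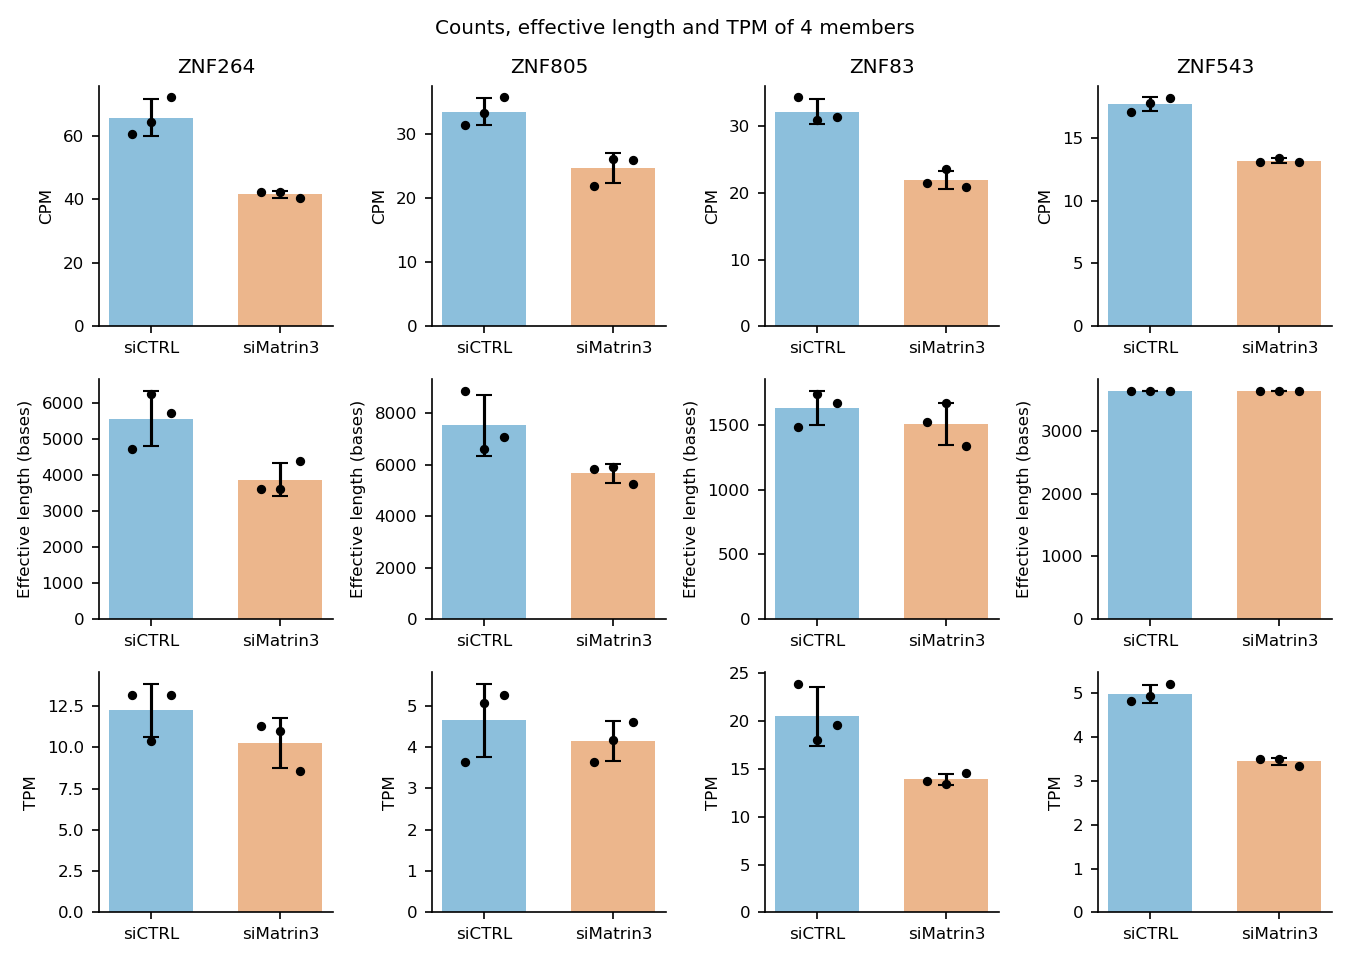
CPM, effective length in bases and TPM (y axes, all from 0) of ZNF264, ZNF805, ZNF83 and ZNF543 in siCTRL and siMatrin3, with the 3 libraries of a group as points over a bar for the mean and an error bar for the SD. ZNF264 and ZNF805 are lower in CPM and shorter in effective length in siMatrin3 while their TPM overlap, whereas ZNF543 keeps 1 length of 3641 bases and is lower in both CPM and TPM.

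Beyond the single calls, the members as a group lay below 0. Their median log2 fold change was -0.10 with an interquartile range of -0.34 to 0.03, and 103 members were below 0 and 56 above. The median over all genes tested was -0.00065. ZNF genes of other chromosomes, 216 of which were tested, had a median of -0.03, with 3 higher and 9 lower. The other 706 tested protein-coding genes of chromosome 19 had a median of 0.10, with 75 higher and 12 lower, so that the zinc finger members and the remaining genes of the chromosome lay on opposite sides of 0. Those remaining genes had a median transcript GC content of 61.1%, against 42.9% for the members, which this comparison does not take into account. Among the members, 12 were at least 1.5-fold lower and 2 at least 1.5-fold higher, or 7.55% and 1.26%, against 4.65% and 2.52% of all genes. These are counts and medians without a test of the group.

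Of the members not past the threshold, ZNF320 and ZNF671 were the furthest below 0. ZNF320 was at 3.88, 10.1 and 7.75 CPM in siCTRL and at 1.65, 2.09 and 5.15 in siMatrin3 (log2 fold change -1.34 ± 0.41 SE, edgeR adjusted p = 0.0521), and the groups overlapped. ZNF671 was at 3.88, 2.23 and 2.99 CPM in siCTRL and at 1.23, 1.92 and 1.56 in siMatrin3 (log2 fold change -0.92 ± 0.36 SE, edgeR adjusted p = 0.129). Furthest above 0 were ZNF414 (log2 fold change 0.70 ± 0.23 SE, edgeR adjusted p = 0.0691) and ZNF497 (0.65 ± 0.46 SE, edgeR adjusted p = 0.417), which has a mean of 1.71 ± 0.823 CPM in siCTRL and 2.67 ± 1.42 CPM in siMatrin3 (SD, n = 3 each).

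**Figure D3:**
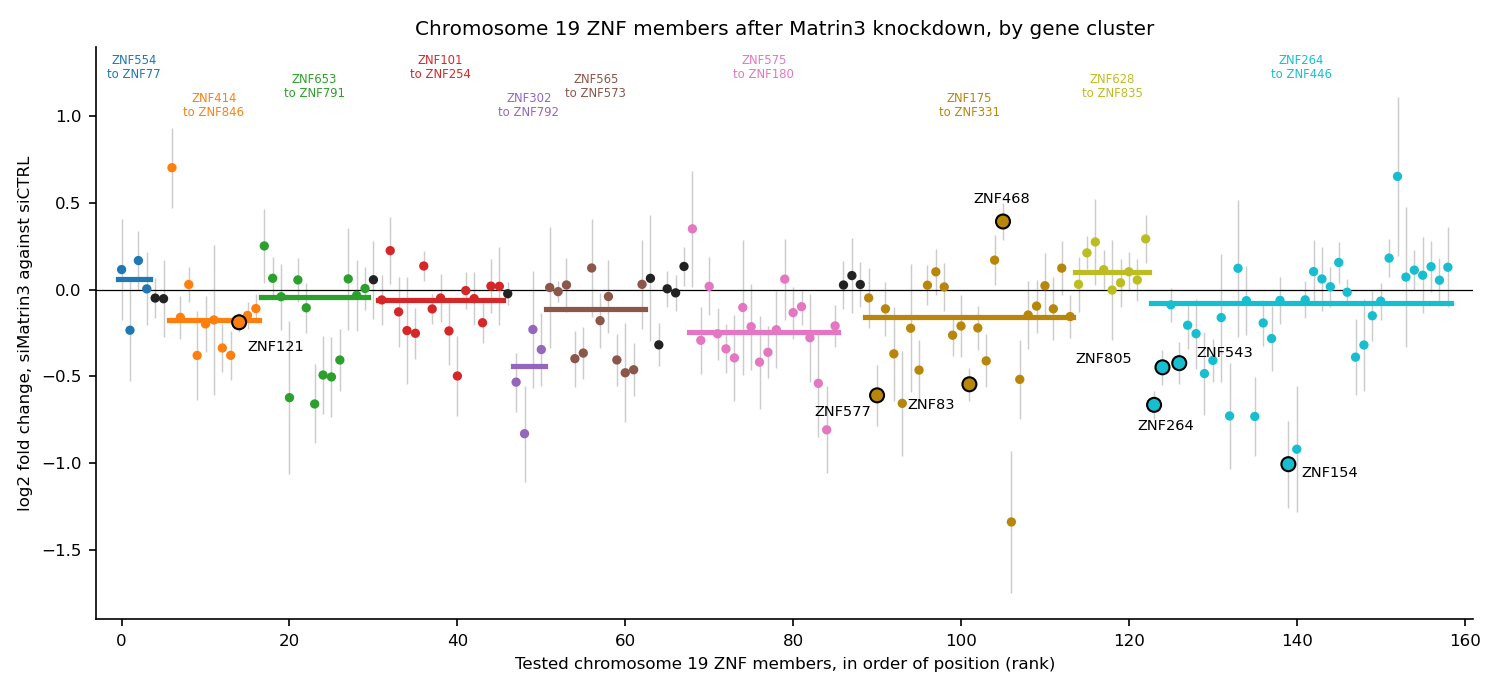
log2 fold change of siMatrin3 against siCTRL (y axis) for the 159 tested members in order of position along chromosome 19 (x axis, rank), coloured by cluster, with scattered members in black; error bars are SE, horizontal lines cluster medians, and large outlined points the 8 members past the threshold. Medians run from -0.44 in the ZNF302 to ZNF792 cluster to 0.10 in the ZNF628 to ZNF835 cluster.

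By position, 149 members fell into 10 clusters, where a gap of more than 500 kb between annotated ZNF genes began a new cluster, and 12 members were scattered. A cluster is named here by its first and last annotated member. Neighbouring tested members within a cluster had a Spearman correlation of 0.36 between their log2 fold changes over 137 pairs, which is a description of genes that share libraries, base composition and in part sequence. The medians of 8 clusters were below 0 and those of 2 above. Of the latter, the ZNF554 to ZNF77 median of 0.06 turned to -0.055 with effective lengths as an offset and to -0.015 without siMatrin3 replicate 3.

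The small ZNF302 to ZNF792 cluster (chr19:34677639-34964229, hg38) had the lowest median, -0.44. All 4 tested members were below 0, and their summed CPM was 71.1% of control. ZNF302, the most abundant by CPM and the lowest in p, was at 14.2, 11.9 and 15.9 CPM in siCTRL and at 8.64, 11.3 and 8.89 in siMatrin3 (log2 fold change -0.53 ± 0.17 SE, edgeR adjusted p = 0.0625). The groups did not overlap for ZNF302, but no member of this cluster passed.

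In the ZNF575 to ZNF180 cluster (chr19:43525497-44500524), 15 of 18 tested members were below 0 and the median was -0.24, also without a call. ZNF112 had its lowest p, at 5.83, 6.82 and 6.87 CPM in siCTRL and 3.29, 4.70 and 3.28 in siMatrin3 (log2 fold change -0.81 ± 0.25 SE, edgeR adjusted p = 0.0556; 0.0498 with the replicate block). ZNF227, the most abundant there by CPM, was at 26.0 ± 0.264 CPM in siCTRL and 24.3 ± 2.41 in siMatrin3 (SD, n = 3 each, edgeR adjusted p = 0.608). In the ZNF414 to ZNF846 cluster (chr19:8509678-9793180), which holds ZNF121, 9 of 11 members were below 0 with a median of -0.17.

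The ZNF175 to ZNF331 cluster (chr19:51571283-53580269) had 25 tested members, a median of -0.15 and 3 calls, with ZNF83 and ZNF577 lower and ZNF468 higher. The largest cluster, ZNF264 to ZNF446 (chr19:57191500-58481230), held 38 members, of which 36 were tested. Its median was -0.08 (-0.19 without siCTRL replicate 2), its 4 calls were ZNF264, ZNF805, ZNF543 and ZNF154, and 23 members were below 0. ZNF587, its most abundant member by CPM, was at 63.5 ± 2.02 CPM in siCTRL and 62.5 ± 5.24 in siMatrin3 (SD, n = 3 each, edgeR adjusted p = 0.936). This cluster thus held members that passed as well as an abundant one whose groups overlapped. ZNF264, which passed, was itself among its more abundant members.

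The remaining clusters held no member past the threshold either. Over all 7 clusters without a call, edgeR gave 13 members lower and 1 higher at an unadjusted p under 0.05, of 75 tested, and the replicate block gave 2 calls, ZNF875 and ZNF112. The unadjusted shares were 17.3% lower and 1.33% higher, against 12.3% and 12.8% of all genes. The ZNF653 to ZNF791 cluster had a median of -0.04 over 13 members, which was -0.24 both without siCTRL replicate 2 and with effective lengths as an offset. Its member with the lowest p was ZNF136 (log2 fold change -0.66 ± 0.23 SE, edgeR adjusted p = 0.0836). ZNF791 there was at 26.1 ± 4.52 CPM in siCTRL and 25.9 ± 1.81 in siMatrin3 (SD, n = 3 each). The ZNF101 to ZNF254 cluster, which includes ZNF91 (log2 fold change -0.19 ± 0.11 SE, edgeR adjusted p = 0.333), had a median of -0.06 over 15 members. Only 15 of its 37 annotated ZNF genes reached the CPM limit, and ZNF493 had its lowest p (log2 fold change -0.50, edgeR adjusted p = 0.199), with ZNF714 its most abundant by CPM (log2 fold change 0.14, edgeR adjusted p = 0.357).

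The ZNF565 to ZNF573 cluster had a median of -0.11 over 12 members. ZNF146, the member with the highest TPM of all, was at 157, 157 and 151 CPM in siCTRL and at 150.3, 167 and 145 in siMatrin3, with a log2 fold change of -0.01 ± 0.06 SE (edgeR adjusted p = 0.941). ZNF607 had the lowest p there (log2 fold change -0.46 ± 0.15 SE, edgeR adjusted p = 0.0733). The ZNF554 to ZNF77 cluster had a median of 0.06 over 4 members, and ZNF57 was both its most abundant by CPM and its lowest in p (log2 fold change 0.17, edgeR adjusted p = 0.597). Among the 12 scattered members, with a median of 0.02, ZNF507 had a log2 fold change of -0.02 (edgeR adjusted p = 0.875) and ZNF780B one of -0.32 (edgeR adjusted p = 0.122).

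The ZNF628 to ZNF835 cluster (chr19:55476617-56671783) had the highest median of the 10 clusters. None of its 9 members had a KRAB pattern, its median finger count was 6, and its transcripts had a median GC content of 69.1%, against 42.9% for all members. Of the 9 members, 8 were above 0, with a median of 0.10, and their summed CPM was 109% of control. ZNF579 was at 26.3, 27.0 and 24.0 CPM in siCTRL and at 28.5, 29.6 and 31.8 in siMatrin3 (log2 fold change 0.21 ± 0.10 SE, edgeR adjusted p = 0.182). ZNF787 was at 32.5 ± 1.85 and 33.5 ± 6.54 CPM (SD, n = 3 each, edgeR adjusted p = 0.831). This cluster's median changed sign, to -0.04, with the GC content of the transcripts as an offset.

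Members with and without a KRAB pattern differed in their medians. The 127 tested members with a KRAB pattern had a median log2 fold change of -0.15, with 91 below 0, and the 32 without it had a median of 0.04, with 12 below 0. KRAB members numbered 1 higher and 5 lower past the threshold, and the others 0 and 2 by edgeR (2 and 2 at an unadjusted p under 0.05). The unadjusted share of the others was 6.25% in each direction, against 12.8% higher and 12.3% lower over all genes. The lower calls were 3.94% of the KRAB members and 6.25% of the others, both close to the 5.18% over all genes. The summed CPM of KRAB members was 1989 ± 76.7 in siCTRL and 1798 ± 26.1 in siMatrin3, and that of the others 943 ± 9.97 and 922 ± 23.5 (SD, n = 3 each). KRAB ZNF genes on other chromosomes, 81 of which were tested, had a median of -0.02, and 134 ZNF genes there without the pattern had a median of -0.04. Members with and without the pattern also differed in base composition, with a median transcript GC content of 42.4% and 61.3%. When genes were split into 5 equal groups by GC content, 19 of the 32 members without the pattern fell in the highest group, which held 1 KRAB member. In the lowest group the medians were -0.22 over 44 KRAB members and -0.11 over 4 others. In the next group they were -0.14 over 62 KRAB members and -0.26 over 4 others. The middle group had medians of -0.18 over 18 KRAB members and 0.03 over 3 others. The group above it had 0.08 over 2 KRAB members and -0.08 over 2 others. The order thus differed between groups of like GC content, and members without the pattern were few outside the highest group.

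**Figure D4:**
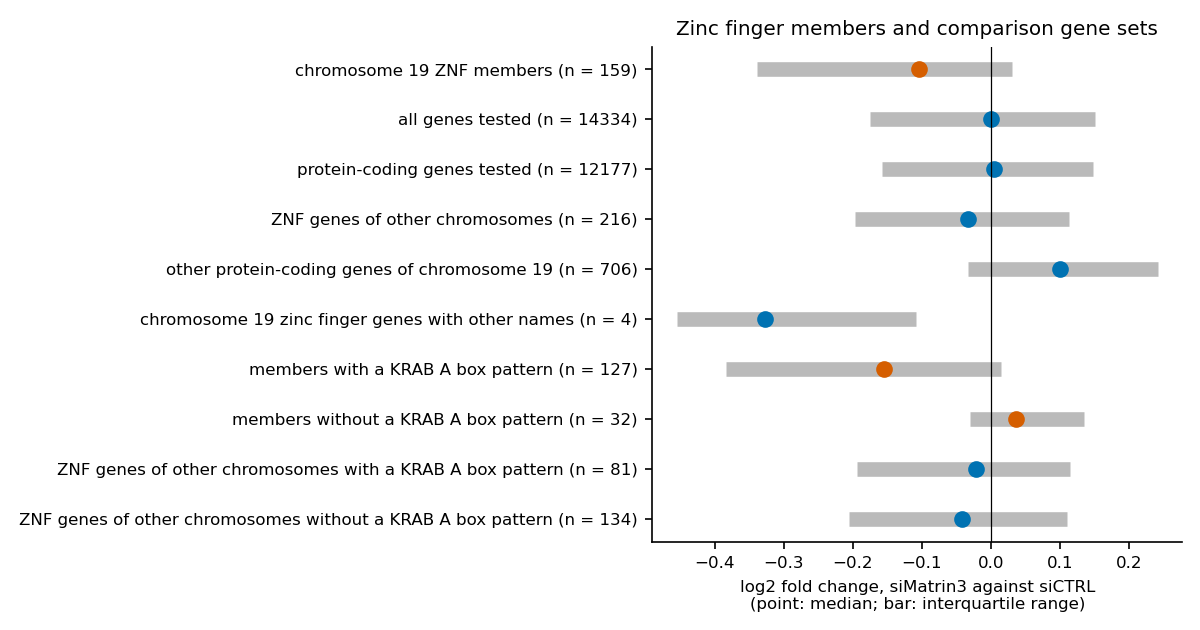
Median (point) and interquartile range (bar) of the log2 fold change, siMatrin3 against siCTRL (x axis), for the members (orange) and for comparison sets of genes (blue), with the number tested beside each name. KRAB members have a median of -0.15, KRAB ZNF genes of other chromosomes one of -0.02, and the other protein-coding genes of chromosome 19 one of 0.10.

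GC content moved with the fold change in all genes. Over 12077 protein-coding genes tested the Spearman correlation between transcript GC content and log2 fold change was 0.23, and over the 159 members it was 0.32, where points share the same 6 libraries. Within the 127 KRAB members alone it was 0.10. In the lowest of the 5 groups by GC content the 48 members had a median of -0.21 and the other genes one of -0.07. In the next group the medians were -0.15 over 66 members and -0.03, and in the middle group -0.07 over 21 members and -0.000042. In the group with the highest GC content the 20 members had a median of 0.11 and the other genes one of 0.08. Low-GC members thus lay below other genes of like composition, and high-GC members lay close to them.

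With the GC trend of each library as an offset, an alternative chosen after seeing the data, the median of all members was -0.10, that of KRAB members -0.12 and that of the others -0.04. With this offset and the replicate block, 11 members were lower by edgeR, against 7.56% of all genes. The number of fingers had a Spearman correlation of -0.19 with the log2 fold change over the 159 members and of -0.04 over the 127 with a KRAB pattern. Gene span had one of -0.02, 3′ UTR length one of -0.09 and mean CPM one of 0.22.

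**Figure D5:**
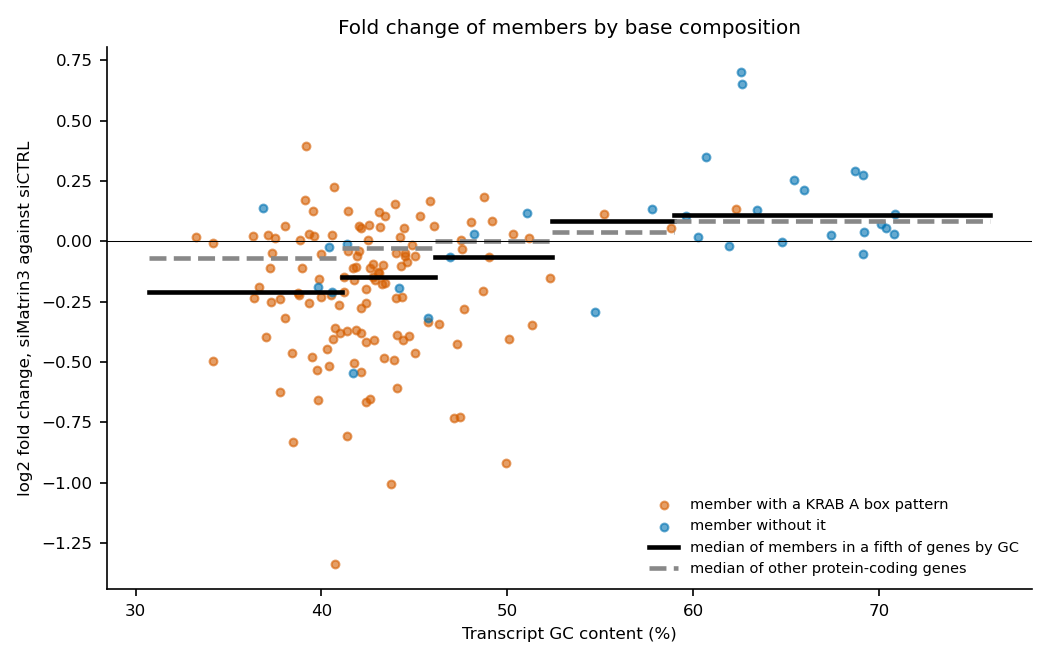
log2 fold change, siMatrin3 against siCTRL (y axis), against transcript GC content in percent (x axis) for tested members with (orange) and without (blue) a KRAB pattern. Solid lines are medians of members and dashed lines medians of other protein-coding genes in 5 equal groups of genes by GC content, and the solid line lies furthest below the dashed one in the group with the lowest GC content, at -0.21 against -0.07.

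Certain 7-base strings in 3′ UTRs had been picked from these same data, so their counts among the members and among other genes are a description. The strings were searched on the sense strand in the 3′ UTR of the transcript with the longest coding sequence. GAAGACT or AAGACTA, which overlap each other by AAGACT, occurred in 27 of the 159 tested members (16.98%), against 16.5% of 11789 other genes. They occurred in 4 of the 7 members that were lower, ZNF264, ZNF805, ZNF543 and ZNF121, and the median log2 fold change was -0.16 over the 27 members and -0.09 over those without a match. The 3′ UTRs searched were 9865, 8025, 1505 and 5611 bases long in these 4, and 5484, 5360 and 637 bases in ZNF577, ZNF154 and ZNF83. A longer 3′ UTR has more room for a match to any string, and length was not taken into account. Among the other genes, 1947 held such a string, with 247 lower and 101 higher, and 9842 did not, with 418 lower and 660 higher. Because the strings were picked from these same data, neither this contrast nor the 4 of 7 members tests them. The sites in the 4 members follow, with the string in capitals.
ZNF264, chr19:57215113-57215139 of hg38, plus strand: ctaatttttgGAAGACTgtgtagaatt
ZNF264, chr19:57221439-57221465 of hg38, plus strand: gatttgctgaGAAGACTcaggtctcag
ZNF805, chr19:57261752-57261778 of hg38, plus strand: gatttgctagGAAGACTcacaggactc
ZNF543, chr19:57330675-57330701 of hg38, plus strand: ttatatttttAAGACTAgattttgagc
ZNF121, chr19:9564465-9564491 of hg38, minus strand: tttttccactGAAGACTtgaacccctc

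A further pair of strings, ATTACAA or TTACAAA, which overlap by TTACAA, occurred in 58 members (36.5%), against 23.2% of the other genes. It occurred in 4 of the 7 lower members and in ZNF468, the member that was higher, and the medians were -0.15 with it and -0.06 without it. Of 2733 other genes with this pair, 201 were lower and 281 higher, and of 9056 without it, 464 and 480. The medians of these other genes were -0.0019 and 0.0071. ZNF83 held neither pair. What these matches have to do with the levels was not tested.

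Zinc finger genes of chromosome 19 with other names were few among the genes tested. ZFP14 had a log2 fold change of -0.57 ± 0.20 SE (edgeR adjusted p = 0.0903), ZFP30 one of -0.42, ZSCAN22 one of -0.24 and ZSCAN5A one of 0.28, and none of the 4 passed.

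The proteins through which KRAB zinc finger proteins act were taken as a list of 42 corepressor and heterochromatin genes, all of which were tested. Of these, 8 were higher in siMatrin3, 2 were lower and 32 did not pass, with a median log2 fold change of 0.07. Over all genes 5.68% were higher and 5.18% lower. Most genes of the list were more abundant than the median gene tested, which was at 22.5 CPM, so that smaller changes could pass. The comparison does not take this into account. With effective lengths as an offset 1 gene of the list was higher and 1 lower, and by limma-trend on log2(TPM + 1) none passed in either direction. TRIM28, the protein that KRAB domains bind, was at 755, 733 and 713 CPM in siCTRL and at 892, 795 and 825 in siMatrin3 (log2 fold change 0.19 ± 0.05 SE, edgeR adjusted p = 0.0392). SETDB1, the histone H3 lysine 9 methyltransferase that TRIM28 recruits, had overlapping groups, with a log2 fold change of -0.04 ± 0.08 SE (edgeR adjusted p = 0.825).

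Among the enzymes, EHMT2, a further histone H3 lysine 9 methyltransferase, was at 88.7, 90.3 and 87.4 CPM in siCTRL and at 120.03, 116 and 120.2 in siMatrin3 (log2 fold change 0.42 ± 0.06 SE, edgeR adjusted p = 0.000735). KDM1A, a histone demethylase, and CHD4, a chromatin remodeller of the NuRD complex, rose by 0.24 and 0.22 on the log2 scale (edgeR adjusted p = 0.0144 and 0.0107). UHRF1, a cofactor of maintenance DNA methylation, rose by 0.24 (edgeR adjusted p = 0.0149), and SUMO2, a ubiquitin-like modifier, by 0.29 (edgeR adjusted p = 0.01005). Of the HUSH silencing complex and its partners, TASOR rose by 0.39 and MORC2 by 0.23 on the log2 scale (edgeR adjusted p = 0.00298 and 0.0457). The other HUSH subunits on the list did not pass, MPHOSPH8 at a log2 fold change of 0.26 (edgeR adjusted p = 0.0819) and PPHLN1 at -0.12 (edgeR adjusted p = 0.343).

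CBX5, which encodes the heterochromatin protein HP1 alpha, was at 350, 383 and 419 CPM in siCTRL and at 284, 299 and 348 in siMatrin3 (log2 fold change -0.31 ± 0.08 SE, edgeR adjusted p = 0.0233). RESF1, a partner of SETDB1 in silencing retroelements, was at 85.2, 88.5 and 80.7 CPM in siCTRL and at 58.2, 69.6 and 57.5 in siMatrin3 (log2 fold change -0.46 ± 0.08 SE, edgeR adjusted p = 0.00329). Without siCTRL replicate 3, 4 genes of the list were higher and 1 lower, without siCTRL replicate 2, 7 and 1, and without siCTRL replicate 1, 5 and 2. Without siMatrin3 replicate 1 they were 5 and 1, and without siMatrin3 replicate 3, 5 and 2. Over all genes 772, 1149 and 1138 were called without siCTRL replicates 3, 2 and 1. Without siMatrin3 replicates 1 and 3 it was 974 and 938, against 1557 with all 6 libraries.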

How the data were processed

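RNA was measured in 6 libraries of HCT116 cells, 3 siCTRL and 3 siMatrin3, grouped by their labels. The study's methods give TopHat and 48 h of transfection for its libraries depleted of ribosomal RNA, and STAR for its poly(A) libraries. For the depleted libraries they describe extraction with TRIzol and a directional kit with single-end sequencing. The aligner and the time of the libraries used here match the depleted ones. Their labels nevertheless name a stranded mRNA kit, which the methods give for the poly(A) libraries, and that difference is unexplained. Per the labels, the authors used cutadapt, TopHat and RSEM on hg19. The deposited expected counts are estimated reads per gene, without normalization between libraries. The authors' tables also give TPM values, scaled within each library by RSEM, and an effective length in bases (unit other). For the annotation release and the strand setting, the sources used here give nothing.

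Gene IDs were matched to GENCODE release 44 on hg38 for symbol, position and sequence (58472 of 58884, 99.3%). Fingers, the KRAB A box and identity came from its coding sequences, in place of the RefSeq proteins first planned. Expected counts were rounded. Genes were kept by edgeR's filterByExpr (minimum count 10, minimum total 15), scaled by TMM and tested two-sided in R 4.3.3 with edgeR 4.0.16 (quasi-likelihood), the p-values of all 14334 genes being adjusted by Benjamini-Hochberg and read at 0.05; the script was tested on simulated data. CPM in the comparisons uses TMM-adjusted totals, while the CPM of the member rule uses the plain totals. An SE is the log2 fold change over the square root of F. Libraries of a group differed beyond sampling noise in each pair (chi-square over its degrees of freedom, 2.65 to 4.40). Libraries come from biological triplicates of 1 line, and p-values measure the spread between them. The labels number the replicates but do not say that same-numbered libraries were matched. Those libraries deviated weakly together from their group means, with correlations of 0.107, 0.104 and 0.157, against -0.0842 to -0.0238 for the other pairs. Deviations within a group sum to 0, so the other pairs are not an independent baseline. Unless the block is named, SE and p-values come from the fit without it.

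The members and lists were chosen with earlier results of these data known. Genes named are MATR3, all members past the threshold, the member with the highest CPM and the lowest p in each cluster, genes next to the CPM limit, called corepressor genes with TRIM28 and SETDB1, the other-named zinc finger genes, and the 2 largest changes of each sign among members that did not pass; the others were named after their values were seen. Alternatives were RLE and upper quartile scaling, 2 more count filters, totals without small RNA and mitochondrial genes, effective lengths as an offset, DESeq2 1.42.0, limma-trend (limma 3.58.1) on log2(TPM + 1), an adjusted p of 0.01, leaving out each library, the replicate block, a minimum mean of 2 CPM, members that overlap no gene, other cluster gaps and, added after seeing the data, a GC offset with and without the block.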

Additional observations from a re-analysis of the deposited data

How the results depend on the processing

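Calls of single members depended on the setting and medians less so. Members higher and lower in siMatrin3 numbered 1 and 7 as reported, 0 and 3 by DESeq2, 2 and 13 with the replicate block, 2 and 7 without a count filter, 0 and 0 with effective lengths as an offset or by limma-trend on log2(TPM + 1), 0 and 2 at an adjusted p under 0.01, and 0 and 3 over the 44 members that overlap no other gene. Over the fits that left out each library they numbered 0 to 2 and 2 to 7. Over all genes 1557 were called as reported, 2259 with the block, 1011 by DESeq2, 204 with effective lengths and 149 by limma-trend. With a library left out, 772 to 1334 were called. The GC offset with the replicate block gave 11 lower.

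The corepressor list held 8 genes higher and 2 lower as reported, 1 and 1 with effective lengths, 0 and 0 by limma-trend, 2 and 1 at an adjusted p under 0.01, 13 higher under the GC offset with the block, and 4 to 7 and 1 to 2 with a library left out. The block gave 11 and 2. Apart from the members it added, the block changed no call of a gene named in the report. By limma-trend, whose scale understates low genes, the log2 fold changes of ZNF264, ZNF805 and ZNF154 were -0.23, -0.13 and -0.53, and none of the 8 called members passed.

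By limma-trend the median log2 fold change over all genes tested was itself -0.092, against -0.00065 as reported. The median log2 fold change of the members was -0.17 by limma-trend, -0.17 over the members that overlap no other gene, and -0.14 to -0.074 with a library left out. That of KRAB members was -0.24, -0.23 and -0.19 to -0.11 in the same settings and -0.11 under the GC offset with the block. That of members without the pattern was -0.068 by limma-trend, -0.039 under the GC offset, and 0.0031 to 0.09 with a library left out.

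Cluster medians moved as follows. By limma-trend they were -0.11 for ZNF554 to ZNF77, -0.24 for ZNF414 to ZNF846, -0.28 for ZNF653 to ZNF791, -0.14 for ZNF101 to ZNF254, -0.28 for ZNF175 to ZNF331, -0.032 for ZNF628 to ZNF835 and -0.19 for ZNF264 to ZNF446. With effective lengths they were -0.055 for ZNF554 to ZNF77, -0.24 for ZNF653 to ZNF791 and -0.27 for ZNF175 to ZNF331. Under the GC offset without and with the block they were -0.13 and -0.12 for ZNF414 to ZNF846, -0.18 and -0.19 for ZNF575 to ZNF180, -0.099 and -0.10 for ZNF175 to ZNF331, and -0.039 and -0.064 for ZNF628 to ZNF835, whose sign changed in both and by limma-trend. The limma-trend median of that cluster, -0.032, still lay above the -0.092 over all genes tested in that setting. A gap of 1000 kb merged the ZNF628 to ZNF835 and ZNF264 to ZNF446 clusters at a median of -0.015. With a library left out, the ranges were -0.015 to 0.10 for ZNF554 to ZNF77, -0.24 to -0.026 for ZNF653 to ZNF791, -0.62 to -0.37 for ZNF302 to ZNF792, -0.18 to -0.10 for ZNF565 to ZNF573, -0.30 to -0.19 for ZNF575 to ZNF180, -0.21 to -0.13 for ZNF175 to ZNF331, 0.064 to 0.17 for ZNF628 to ZNF835 and -0.19 to -0.062 for ZNF264 to ZNF446. The low counts of most members limit which changes could be called, and the causes of these differences were not tested.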
